A study of Mus musculus with 6 samples.

Results

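The genes described here are 34 genes of the response to stress in the endoplasmic reticulum and of the Atf4 response. They were listed by name, but with earlier results of these data known, so the counts below are a description only. All 34 were found among the 14472 genes of the authors' deposited table, each on 1 row, and all had an adjusted p. Their mean normalised counts, averaged by the authors over all libraries after scaling for depth, ran from 462.3 (Eif2ak3) to 31485 (Calr) in the authors' deposited table, so none was lost to a filter on low values.

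Bulk RNA was sequenced from mLPS1 cells, which the labels describe as murine dedifferentiated liposarcoma, a tumour of the fat lineage. The labels give 3 libraries with the genotype WT and 3 with the genotype NICD Knockout, NICD being the intracellular domain that an activated Notch receptor releases into the nucleus. Each genotype is 1 cell line in the labels, which do not say how the knockout was made, whether it is a single clone or whether cultures were separate, so the spread behind the p-values is that of these libraries and may be technical. The titles carry the numbers 35, 37 and 40 in wild type and 34, 36 and 39 in the knockout, without saying what they stand for, while the title of the series names over-expression of Notch. The comparison asks how the line without NICD differs from the wild type line, and every change below is knockout over wild type, a direction read from the authors' name for the table.

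The endoplasmic reticulum is where secreted and membrane proteins are folded, given disulfide bonds and sugar chains, and checked before export, a heavy task in matrix-producing mesenchymal cells. When unfolded proteins accumulate, 3 sensors in its membrane respond: Ire1 (gene Ern1), which splices the RNA of Xbp1, Perk (gene Eif2ak3), which phosphorylates the initiation factor eIF2 and so favours translation of Atf4, and Atf6, which is cut to release a transcription factor. Together they raise chaperones, folding enzymes and the machinery that returns misfolded proteins to the cytosol for degradation (ERAD). Atf4 also answers to amino acid shortage and other stresses through other eIF2 kinases. Splicing of Xbp1, cleavage of Atf6 and translation of Atf4 are not seen in a table with 1 RNA value per gene.

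In the authors' deposited table, Notch1 fell 3.43-fold and the Notch targets Heyl and Hes1 fell 1610-fold and 6.93-fold. The fold of Heyl is imprecise, with an estimated knockout level of 10.4 normalised counts and a 95% Wald interval of -12.8 to -8.47 (log2). RNA of an introduced Notch fragment cannot be told apart from that of Notch1. The depth of single libraries is unknown, and the means over all genes of the authors' deposited table add up to 21033526 normalised counts. All 9 tested of 10 mesenchymal markers changed by the authors' deposited table, 5 lower and 4 higher. Pdgfrb fell with a log2 fold change of -3.02 at a mean of 9477, and Pdgfra rose (2.36, at a mean of 103). Vim, Fn1, Col1a1 and Col3a1 fell with log2 fold changes of -0.56, -1.39, -1.94 and -3.25 at means of 82338, 92643, 19458 and 7474, S100a4 rose (1.78), and Dcn and Col1a2 rose from low levels (6.59 and 1.27, at means of 34.9 and 26.5). The leukocyte marker Ptprc and the endothelial marker Pecam1 had means of 8.73 and 10.9 by the authors' deposited table, although the lysosomal gene Cd68, also listed as a leukocyte marker, rose with a log2 fold change of 3.64. Of 8 leukocyte markers 5 were tested, of which 2 rose and 1 fell by the authors' deposited table, and their part in the results below was not tested. In bulk RNA, fewer cells of a type and less RNA per cell cannot be told apart.

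Chaperones and disulfide isomerases of the endoplasmic reticulum were mostly lower in the knockout, the sensor gene Ern1 was 8.42-fold higher, and Atf4 and most of its targets in the set did not pass the test, by the authors' deposited table. In all, 17 of the 34 genes (50%) fell and 4 (11.8%) rose at an adjusted p under 0.05 in the authors' DESeq2 Wald test, adjusted over all 14470 genes with a p. Over all those genes 25.1% were lower and 25.4% higher by the authors' deposited table, and among the 7152 genes whose mean was 462 or more the shares were 33.8% lower and 21.8% higher. The share of the 34 genes that passed in either direction was 61.8%, against 50.5% of all genes and 55.6% of genes at or above that mean. The median log2 fold change of the 34 was -0.45 by the authors' deposited table, beside 0.02 over all genes tested and -0.05 over those with means of 100 or more. Under stricter rules, 7 of the 34 fell and 2 rose after Bonferroni adjustment (11.5% and 10.5% of all genes), 12 and 3 when a change of at least 1.5-fold was also required (17.2% and 19.3%), and 5 and 2 in a test that the change exceeds 1.5-fold (8.13% and 9.61%). These shares are over genes of any mean, although all 34 had means of 462 or more. Under these rules, shares among genes at or above that mean were not computed. Of the 21 genes that passed, 15 had a change under 2-fold by the authors' deposited table, a share not computed over all genes. The median absolute log2 fold change of the 34 was 0.61. It was 0.52 over all genes tested and 0.40 over those with means of 100 or more. The median log2 fold change of the 10 expressed protein-coding genes on either side ran from -0.94 (Sel1l) to 0.60 (P4hb) among the 34. Each gene was therefore also set beside this median, which was subtracted. Whether blocks of genes shifted together was not tested. The p-values after subtraction were recomputed here from each gene's own standard error. The neighbour median was taken as fixed, so its error is left out of these p-values. With neighbours subtracted, 15 of the 34 genes were lower and 3 higher, against 21.3% and 26.1% of all genes of any mean. The median of the 34 was then -0.31, beside 0.07 over all genes and -5.3e-05 over those with means of 100 or more. The changes are shown by role, gene by gene.

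**Figure D1:**
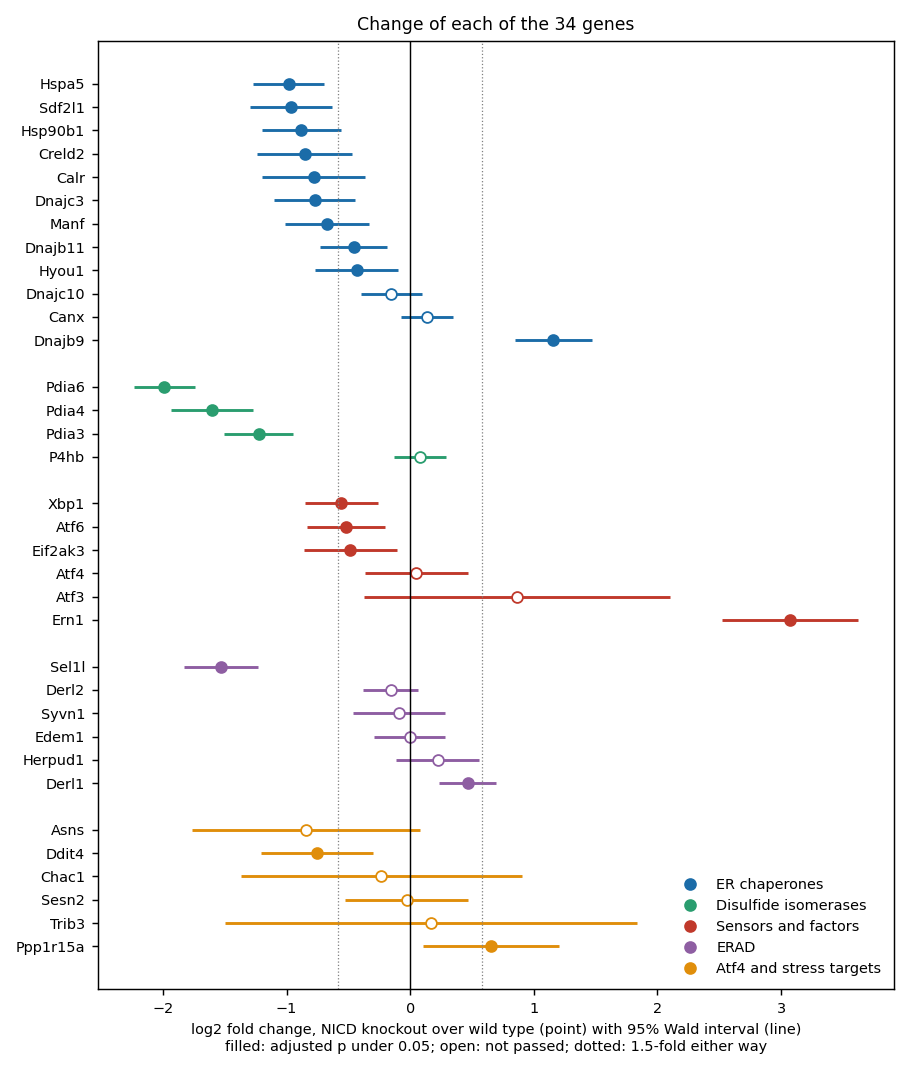
Log2 fold change of each gene, knockout over wild type, with its 95% Wald interval (1.96 standard errors to either side), grouped by role. Filled points passed an adjusted p of 0.05; most chaperones and disulfide isomerases lie left of 0, Ern1 stands at 3.07, and Asns, Chac1, Trib3 and Atf3 have the widest intervals.

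Of the 12 chaperones and co-chaperones, 9 fell, 1 rose and 2 did not pass, and the median log2 fold change was -0.72 by the authors' deposited table. Hspa5 (ENSMUSG00000026864, chromosome 2) encodes BiP, the Hsp70 chaperone that binds unfolded chains and holds the 3 sensors inactive. Its fitted level, derived from the deposited mean and fold change and assuming that 3 libraries of each group entered, was 33766 normalised counts in wild type and 17094 in the knockout. That is a fall of 1.98-fold by the authors' deposited table (adjusted p = 1.48e-10, log2 fold change -0.98 with an SE of 0.15). Hsp90b1, the Hsp90 of this compartment, fell from a fitted level of 33377 to 18125 by the authors' deposited table (SE 0.16, log2 fold change -0.88). The lectin chaperone and calcium store Calr fell from 39817 to 23154 (SE 0.21, log2 fold change -0.78) by the same fit to the authors' deposited table. Its membrane-bound relative Canx, which binds the same sugar chains, stood at 10668 in wild type and 11729 in the knockout and did not pass by the authors' deposited table (log2 fold change 0.14, interval -0.08 to 0.35, adjusted p = 0.299).

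The partners of Hspa5 moved in different directions. Hyou1, which exchanges its nucleotide, Dnajc3, which feeds it unfolded chains, and Dnajb11 fell with log2 fold changes of -0.43, -0.77 and -0.46 by the authors' deposited table. With neighbours subtracted, Hyou1 (-0.05, adjusted p = 0.855) and Dnajb11 (0.12, adjusted p = 0.492) no longer passed. Sdf2l1, a component of the Hspa5 chaperone complex, fell from a fitted level of 1047 to 536.2 by the authors' deposited table (SE 0.17, log2 fold change -0.97). Manf and Creld2, small proteins that stress in this compartment induces, fell with log2 fold changes of -0.68 and -0.85 by the authors' deposited table. Dnajc10, a co-chaperone that reduces disulfide bonds, stood at a log2 fold change of -0.15 (interval from -0.40 to 0.09) and did not pass by the authors' deposited table, but was above its neighbours by 0.29 (adjusted p = 0.0423 after subtraction). Unlike the 9 that fell, Dnajb9 (ENSMUSG00000014905, chromosome 12) rose 2.23-fold, from a fitted level of 781.0 to 1743, by the authors' deposited table (adjusted p = 5.01e-12, log2 fold change 1.16 with an SE of 0.16). Dnajb9 encodes ERdj4, a J protein known as a target of spliced Xbp1 and as a repressor of Ire1.

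The disulfide isomerases, which form and rearrange the disulfide bonds of new proteins, held the 2 steepest falls of the 34 genes as deposited, in Pdia6 and Pdia4. Pdia6 (ENSMUSG00000020571, chromosome 12) dropped from a fitted level of 11396 to 2871, a 3.97-fold fall by the authors' deposited table (adjusted p = 3.52e-55, log2 fold change -1.99 with an SE of 0.13). Pdia4 fell 3.04-fold, from 8589.6 to 2829, and Pdia3, the isomerase that works with Calr and Canx on glycoproteins, fell 2.34-fold, from 39274 to 16779, by the authors' deposited table. P4hb, the founding isomerase and also a subunit of the prolyl hydroxylase of collagens, stood at 25596 in wild type and 27099.6 in the knockout and did not pass by the authors' deposited table (log2 fold change 0.08, interval -0.13 to 0.29, adjusted p = 0.548). The intervals of P4hb and of the other 3 isomerases do not overlap, but the difference between genes was not tested. The 3 isomerases that fell lay among falling neighbours, with neighbour medians of -0.88 (Pdia6), -0.78 (Pdia4) and -0.46 (Pdia3). After subtraction their log2 fold changes were -1.11, -0.82 and -0.76, and all 3 still passed. Pdia6 was then still the lowest of the 34, while Pdia4 came after Hspa5 (-0.89), Hsp90b1 (-0.89), Calr (-0.88), Manf (-0.84) and Sdf2l1 (-0.84). P4hb lay among rising neighbours (median 0.60) and stood below them by 0.52 on the log2 scale (-0.52, adjusted p = 6.62e-06 after subtraction from the authors' deposited values).

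**Figure D2:**
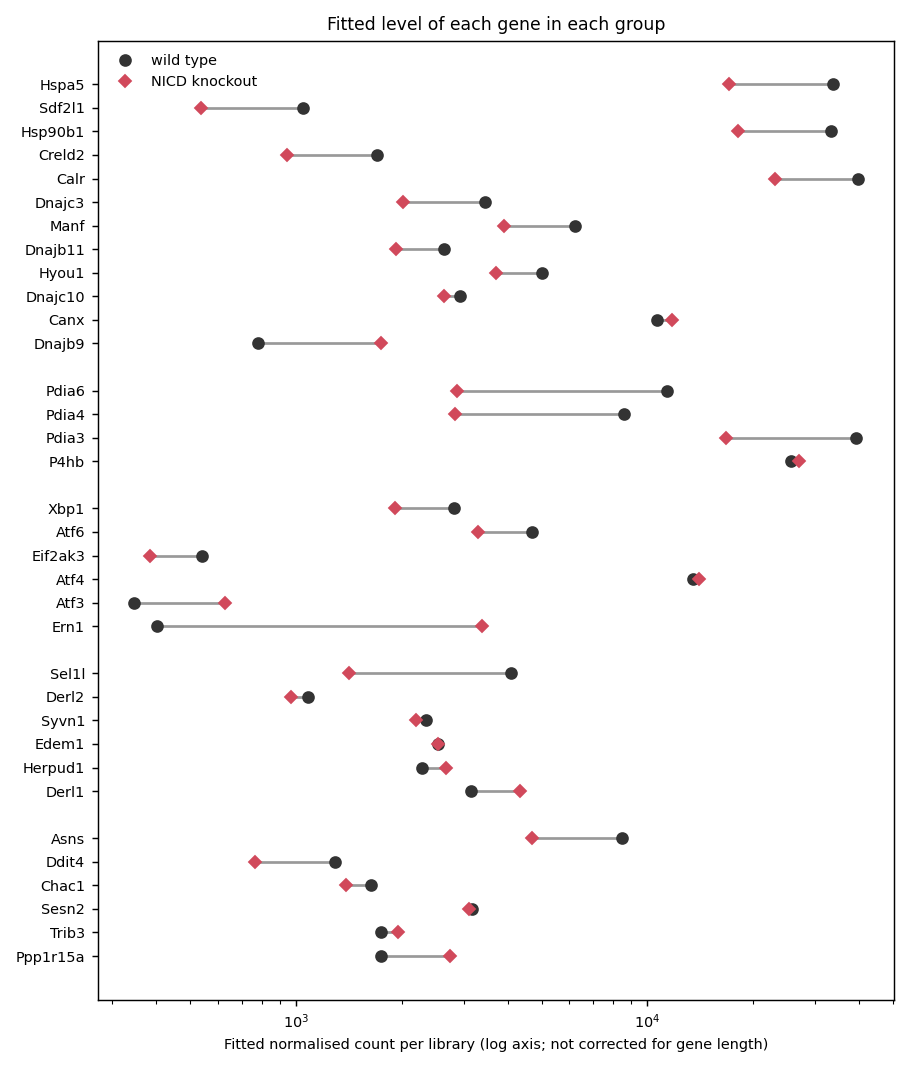
Fitted normalised count per library in wild type (circles) and in the knockout (diamonds) for each gene, on a log axis and not corrected for gene length, so levels should be read within a gene only. Pdia6 moves from 11396 to 2871 and Ern1 from 402.6 to 3389, while the symbols of P4hb, Atf4, Edem1 and Sesn2 overlap.

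Many genes of this response carry a short element in their promoters, the endoplasmic reticulum stress element (ERSE), read by NF-Y at its CCAAT part and by Atf6 or spliced Xbp1 at its CCACG part. To see which of the 34 genes hold it, promoter sequences of RefSeq (build GRCm38.p6, 250 bases before to 50 after a gene's start) were matched by symbol, which gave 30 of the 34 genes. The authors' build is mm39, so these windows serve only for their letters. The motif, CCAAT and CCACG with 9 bases of any kind between them, was searched on both strands. It was in 8 of the 30 genes (26.7%) and in 39 of all 32851 promoters (0.119%). The 8 were 6 chaperone genes, Pdia6 and Syvn1. The matches are written below in the motif's direction with the CCAAT and CCACG parts in capitals, and Calr, Creld2 and the nearer match of Hsp90b1 lie on the strand opposite to the gene.
Calr: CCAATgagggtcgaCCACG
Canx: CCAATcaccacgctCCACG
Creld2: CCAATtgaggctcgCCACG
Dnajc3: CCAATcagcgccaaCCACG
Hsp90b1, farther match: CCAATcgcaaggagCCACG
Hsp90b1, nearer match: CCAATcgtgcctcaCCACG
Hspa5: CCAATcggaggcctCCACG
Pdia6: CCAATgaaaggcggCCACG
Syvn1: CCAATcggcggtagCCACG

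Falls were not limited to genes with a match: Pdia4 (-1.60), Sel1l (-1.53), Pdia3 (-1.23) and Sdf2l1 (-0.97) held none in these letters and were among the steepest falls by the authors' deposited table. Of the 8 genes with a match, 6 fell and 2, Canx and Syvn1, did not pass, and their median log2 fold change was -0.82 by the authors' deposited table. The other 22 genes with a promoter sequence held 8 that fell, 3 that rose and 11 that did not pass, with a median of -0.16 by the authors' deposited table. Matches also followed role. They were in 6 of 10 chaperone genes with a promoter sequence, 1 of 4 isomerases and 1 of 5 ERAD genes. None of the 5 sensors and factors or of the 6 Atf4 and stress targets held 1. The parts of role and motif were not tested apart. These counts are a description, since the genes were picked as members of this response, and a match of letters does not show binding.

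The windows of 3 genes that fell and hold a match, 1 that fell and holds none and 1 that rose and holds none are given from 250 bases before the start to the base before it, on the gene's strand, with motif matches in capitals. Hspa5 (chr2:34771840-34772089, plus strand) has its match 65 to 47 bases before the start. Hsp90b1 (chr10:86705445-86705694, minus strand) has 2 matches. Pdia6 (chr12:17266339-17266588, plus strand), the steepest fall as deposited, has 1 match, 98 to 80 bases before the start. Pdia4 (chr6:47813513-47813762, minus strand), which also fell, and Dnajb9 (chr12:44210069-44210318, minus strand), the chaperone gene that rose, are shown beside them and hold none of the motifs searched in these letters.
Hspa5: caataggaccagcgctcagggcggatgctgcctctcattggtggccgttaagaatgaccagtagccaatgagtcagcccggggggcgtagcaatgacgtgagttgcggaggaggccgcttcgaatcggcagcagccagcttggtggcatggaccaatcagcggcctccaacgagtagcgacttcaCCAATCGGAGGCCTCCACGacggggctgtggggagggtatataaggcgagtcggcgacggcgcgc
Hsp90b1: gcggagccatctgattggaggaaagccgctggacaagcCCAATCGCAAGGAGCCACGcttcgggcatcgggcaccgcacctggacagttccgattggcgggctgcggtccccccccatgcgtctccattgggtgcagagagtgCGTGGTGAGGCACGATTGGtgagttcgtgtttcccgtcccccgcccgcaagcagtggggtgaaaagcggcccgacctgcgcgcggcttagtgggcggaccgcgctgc
Pdia6: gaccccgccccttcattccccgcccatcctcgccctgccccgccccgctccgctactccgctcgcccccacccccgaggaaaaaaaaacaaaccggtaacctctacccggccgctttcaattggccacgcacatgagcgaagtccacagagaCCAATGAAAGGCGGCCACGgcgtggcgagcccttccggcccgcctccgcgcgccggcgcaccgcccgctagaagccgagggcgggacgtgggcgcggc
Pdia4: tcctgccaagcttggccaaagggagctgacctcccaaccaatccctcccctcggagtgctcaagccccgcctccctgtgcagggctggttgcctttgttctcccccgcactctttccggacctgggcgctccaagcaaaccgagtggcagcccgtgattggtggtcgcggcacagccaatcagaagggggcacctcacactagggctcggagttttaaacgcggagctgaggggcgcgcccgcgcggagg
Dnajb9: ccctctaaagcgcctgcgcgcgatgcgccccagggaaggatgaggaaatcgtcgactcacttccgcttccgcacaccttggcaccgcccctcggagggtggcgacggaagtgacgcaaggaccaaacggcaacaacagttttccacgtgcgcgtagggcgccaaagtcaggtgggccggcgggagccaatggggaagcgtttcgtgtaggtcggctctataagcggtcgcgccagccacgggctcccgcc

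Among the sensors and their transcription factors, Ern1 rose, Xbp1, Atf6 and Eif2ak3 fell, and Atf4 and Atf3 did not pass by the authors' deposited table. Ern1 (ENSMUSG00000020715, chromosome 11), the gene of the Ire1 kinase and nuclease, rose from a fitted level of 402.6 to 3389, an 8.42-fold change by the authors' deposited table (adjusted p = 1.77e-26, log2 fold change 3.07 with an SE of 0.28). Xbp1, the RNA that Ire1 splices, fell 1.47-fold, from 2819.8 to 1916, by the authors' deposited table (adjusted p = 7.14e-04, log2 fold change -0.56 with an SE of 0.15). It still passed with neighbours subtracted (-0.50, adjusted p = 0.00306). Atf6 and Eif2ak3 fell 1.43-fold and 1.40-fold by the authors' deposited table (adjusted p = 0.00374 and 0.0244), and neither passed with neighbours subtracted (-0.33, adjusted p = 0.0788 for Atf6 and -0.01, adjusted p = 0.966 for Eif2ak3). Atf4 had a fitted level of 13506 in wild type and 13992 in the knockout by the authors' deposited table (log2 fold change 0.05, interval -0.37 to 0.47, adjusted p = 0.863). Atf3, a stress-induced repressor downstream of Atf4, stood at 346.0 and 629.1, with an interval from -0.38 to 2.10 that holds a fall as well as a 4-fold rise (adjusted p = 0.256 by the authors' deposited table).

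Of the 6 ERAD genes, 1 fell, 1 rose and 4 did not pass by the authors' deposited table. Sel1l (ENSMUSG00000020964, chromosome 12), the scaffold of the main ERAD ubiquitin ligase, fell 2.89-fold, from a fitted level of 4104 to 1419, by the authors' deposited table (adjusted p = 1.08e-22, log2 fold change -1.53 with an SE of 0.15). Its neighbours had a median of -0.94, and subtraction left -0.59 (adjusted p = 3.70e-04). Its catalytic partner Syvn1 (Hrd1) stood at a log2 fold change of -0.09 (interval from -0.46 to 0.28) by the authors' deposited table. Derl1, a membrane protein of the channel that exports misfolded chains, rose 1.38-fold by the authors' deposited table (adjusted p = 3.13e-04, log2 fold change 0.46 with an SE of 0.12), and its relative Derl2 had a log2 fold change of -0.16. With neighbours subtracted, Derl1 no longer passed (0.18, adjusted p = 0.203) and Derl2 did (-0.38, adjusted p = 0.00277). Edem1, a lectin that marks glycoproteins for degradation, and Herpud1, which organises the ligase complex, had log2 fold changes of 0.00 and 0.22 by the authors' deposited table.

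Of the 6 genes taken as targets of Atf4 and the integrated stress response, Ppp1r15a rose, Ddit4 fell and 4 did not pass by the authors' deposited table. Ppp1r15a encodes Gadd34, which brings a phosphatase to eIF2 and ends the block of translation. It rose 1.57-fold, from a fitted level of 1748 to 2753, by the authors' deposited table (adjusted p = 0.0406, log2 fold change 0.66 with an SE of 0.28), and did not pass with neighbours subtracted (0.59, adjusted p = 0.0717). Ddit4 (Redd1), an inhibitor of mTORC1 that also responds to hypoxia and glucocorticoids, fell 1.69-fold, from 1289 to 764.4, by the authors' deposited table (adjusted p = 0.00320, log2 fold change -0.75 with an SE of 0.23). Asparagine synthetase, Asns, stood at 8447 in wild type and 4700.1 in the knockout and did not pass by the authors' deposited table (log2 fold change -0.85, interval -1.77 to 0.08, adjusted p = 0.123). The pseudokinase gene Trib3, the glutathione-degrading enzyme gene Chac1 and the mTORC1 regulator gene Sesn2 had log2 fold changes of 0.17, -0.23 and -0.03 by the authors' deposited table.

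The 13 genes that did not pass were of different kinds. For 9 of them, Canx, Dnajc10, P4hb, Atf4, Herpud1, Edem1, Derl2, Syvn1 and Sesn2, the whole 95% interval from the authors' deposited table lay within 1.5-fold either way. For the other 4, Asns, Trib3, Chac1 and Atf3, it did not. The interval of Trib3 ran from -1.50 to 1.84 on the log2 scale and that of Chac1 from -1.37 to 0.90 by the authors' deposited table. Both intervals thus hold a change of 1.5-fold in either direction. Those of Asns (-1.77 to 0.08) and Atf3 (-0.38 to 2.10) reach beyond 1.5-fold in 1 direction only.

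The 4 genes were well expressed, with means between 487.6 and 6574 by the authors' deposited table. To put each standard error in context it was ranked among the 500 genes closest in mean. The standard errors of Trib3 (0.85), Chac1 (0.58) and Asns (0.47) were 6.40, 4.21 and 3.78 times the median of those genes by the authors' deposited table, and that of Atf3 (0.63) was 3.85 times. All 6 Atf4 and stress targets lay above the 90th percentile of their 500 genes, against 9.89% of all genes by the authors' deposited table. Of the 12 chaperones 1 (Calr) did, of the 4 isomerases none, of the 6 ERAD genes 1 (Syvn1) and of the 6 sensors and factors 3 (Ern1, Atf4 and Atf3). Read as a spread between libraries of a group, with 3 libraries per group assumed, the standard errors of the authors' deposited table correspond to a coefficient of variation of 72.2% for Trib3, 49.1% for Chac1 and 39.9% for Asns. The median over the 500 genes closest to each of them was between 10.5% and 11.4%, and for Hspa5 and P4hb the coefficient was 12.4% and 9.08%.

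A wider list of 29 Atf4-linked genes of amino acid synthesis, transport and stress, none of them among the 34, had the same feature. Of its 28 tested genes, 23 (82.1%) had a standard error above the 90th percentile of their 500 nearest genes by the authors' deposited table. Of 18 cytosolic aminoacyl-tRNA synthetases, several of which Atf4 activates, 9 (50%) did. In the other 8 lists of related genes between 0% and 18.8% did by the authors' deposited table. Which libraries were high or low cannot be read from 1 value per gene, and neither the order of the title numbers nor a batch could be set against it.

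**Figure D3:**
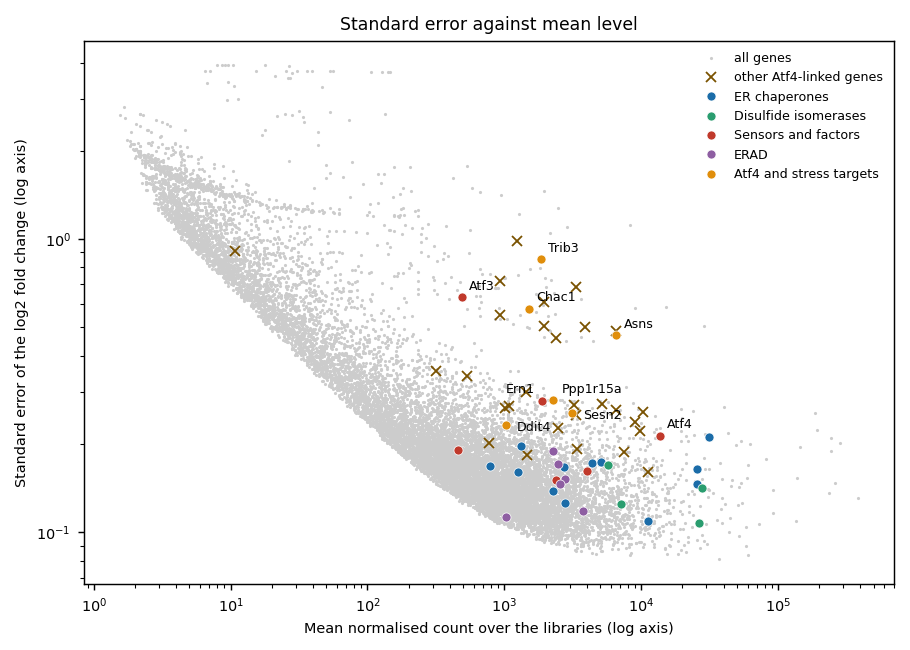
Standard error of the log2 fold change against mean normalised count, both on log axes, for all genes (grey), the 34 genes by role and the other Atf4-linked genes (crosses). Trib3, Atf3, Chac1, Asns and most crosses lie above the band of genes of like mean, whereas most chaperones, isomerases and ERAD genes lie within it.

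Promoter letters of this arm were searched for TGATGCAA, a form of the C/EBP-Atf response element (CARE) through which Atf4 acts, and for ATTGG and CCACG with 1 base of any kind between them, a shorter relative of ERSE (ERSE-II). On either strand TGATGCAA was in 3 of the 30 genes (10%), Atf3, Chac1 and Herpud1, and in 0.895% of all promoters. Only this exact form was searched, so a gene without it may hold another form of CARE. ERSE-II was in 2, Dnajb11 and Herpud1, and in 0.0365% of all promoters. TGACGTGG, the core of the element bound by spliced Xbp1, was in none of the 30 and in 0.676% of all promoters. ERSE and ERSE-II share the CCACG part and TGATGCAA overlaps neither in these genes. Chac1 (chr2:119350992-119351241, plus strand) and Herpud1 (chr8:94386179-94386428, plus strand) are shown because Herpud1 carries elements of both arms, with its ERSE-II 52 to 42 bases before the start, and Chac1 that of Atf4 alone.
Chac1: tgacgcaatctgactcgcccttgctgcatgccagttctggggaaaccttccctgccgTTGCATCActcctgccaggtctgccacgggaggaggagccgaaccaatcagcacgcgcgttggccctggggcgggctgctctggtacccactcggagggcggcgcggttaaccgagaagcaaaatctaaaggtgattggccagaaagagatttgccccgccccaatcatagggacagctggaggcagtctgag
Herpud1: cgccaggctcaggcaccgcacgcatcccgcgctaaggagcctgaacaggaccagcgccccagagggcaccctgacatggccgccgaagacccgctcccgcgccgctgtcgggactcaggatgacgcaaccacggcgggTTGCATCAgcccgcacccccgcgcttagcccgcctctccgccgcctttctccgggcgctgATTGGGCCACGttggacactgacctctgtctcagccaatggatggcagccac

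Neither of these 2 genes passed by the authors' deposited table, but the standard error of Herpud1 was 0.17 and that of Chac1 0.58, at means of 2477 and 1510.

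The lists of related genes place the 34 among the rest of the secretory pathway. Together the 10 lists had 204 tested genes, of which 39 (19.1%) rose and 69 (33.8%) fell. Their means started at 10.7, and 202 had means of 100 or more. Of all genes with means of 100 or more, 24.4% rose and 30.2% fell, and of all genes tested 25.4% and 25.1%. The median log2 fold change of the 204 was -0.12 by the authors' deposited table. Other folding enzymes of the endoplasmic reticulum had 13 of 29 lower (44.8%) and 7 higher (24.1%), with a median of -0.30 by the authors' deposited table. Among them the isomerase gene Pdia5 fell 2.72-fold, the related Txndc5 fell 1.81-fold and the prolyl isomerase gene Fkbp9 fell 3.02-fold by the authors' deposited table, as did Prdx4, a peroxidase that aids disulfide formation (1.78-fold). Vesicle coats and cargo receptors had 14 of 27 lower (51.9%) and 3 higher (11.1%), with a median of -0.35 by the authors' deposited table. With neighbours subtracted these lists had medians of -0.29 and -0.28. Kdelr3, a receptor that returns escaped chaperones, fell 2.50-fold, the coat gene Copg1 fell 1.91-fold and the cargo receptor gene Surf4 fell 1.46-fold, whereas the cargo receptor gene Tmed10 rose 2.73-fold by the authors' deposited table. Of these genes, Surf4 did not pass with neighbours subtracted (-0.16, adjusted p = 0.148).

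In the rest of the secretory pathway genes moved both ways. The translocon, signal peptidase and oligosaccharyltransferase list had 9 of 32 lower and 7 higher, with a median of -0.05 by the authors' deposited table. In it Sec61a1, the channel subunit, and Rpn1, of the sugar transferase, fell 1.90-fold and 1.91-fold, while Srp68 and Srp54a, of the signal recognition particle, rose 1.56-fold and 1.77-fold by the authors' deposited table. Srp68 and Srp54a lay among rising neighbours (medians of 0.50 and 0.87), and neither passed after subtraction (0.14, adjusted p = 0.210, and -0.05, adjusted p = 0.779), while Rpn1 was left with -0.32 (adjusted p = 0.0139). Other ERAD components had 2 of 20 lower, Ngly1 (1.98-fold) and Edem3 (1.83-fold), and 6 higher, with a median of 0.18 by the authors' deposited table and of 0.05 with neighbours subtracted, when 4 were lower and 8 higher. Glycan trimming had 3 of 11 lower and 2 higher, and calcium handling 6 of 16 lower and 5 higher, with the calcium-binding Calu and Rcn3 down 2.16-fold and 3.03-fold by the authors' deposited table.

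Of the genes around the sensors, the Atf6 relatives Creb3l1 and Creb3l2, which drive the secretion of collagen in bone and cartilage cells, fell 3.27-fold and 2.45-fold by the authors' deposited table. Creb3 and Atf6b rose 1.41-fold and 1.29-fold, so the 8 tested genes of that list were 2 lower and 2 higher by the authors' deposited table. With neighbours subtracted, Creb3l2 was left with -0.66 (adjusted p = 7.02e-04) and Atf6b did not pass (0.10, adjusted p = 0.456). Genes of eIF2, its kinases, exchange factor and phosphatase had 8 of 15 lower (53.3%) and 2 higher (13.3%), with a median of -0.28 by the authors' deposited table. With neighbours subtracted 5 were lower and 2 higher, and the median was -0.06. Eif2ak2 was 1 of the 2 higher both ways (1.66 after subtraction, adjusted p = 1.34e-11), and the other was not the same gene. Eif2b2 rose 1.86-fold by the authors' deposited table, but lay among rising neighbours (median 1.33). After subtraction it passed as lower (-0.44, adjusted p = 3.78e-05). The eIF2 subunit gene Eif2s1 fell 2.50-fold, and Eif2ak2 (PKR), the kinase that senses double-stranded RNA and is itself induced by interferon, rose 2.45-fold by the authors' deposited table. Eif2s1 lay among falling neighbours and did not pass after subtraction (-0.33, adjusted p = 0.0798).

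The wider Atf4-linked list had 7 of 28 lower and 3 higher, with a median of -0.15 by the authors' deposited table. Ddit3 (Chop), the transcription factor of prolonged stress, rose 2.54-fold, from a fitted level of 811.6 to 2064, and the stress gene Nupr1 rose 2.31-fold by the authors' deposited table. The neutral amino acid transporter gene Slc1a4 and the serine-using enzyme gene Shmt2 fell 3.43-fold and 1.81-fold by the authors' deposited table. Of the tRNA synthetases 5 of 18 fell and 2 rose, with a median of 0.00 by the authors' deposited table, and Wars, which charges tryptophan, fell 2.60-fold. Wars lies on chromosome 12 among genes that were also lower, with a median of -1.07 over its neighbours, and it did not pass after subtraction (-0.31, adjusted p = 0.331).

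**Figure D4:**
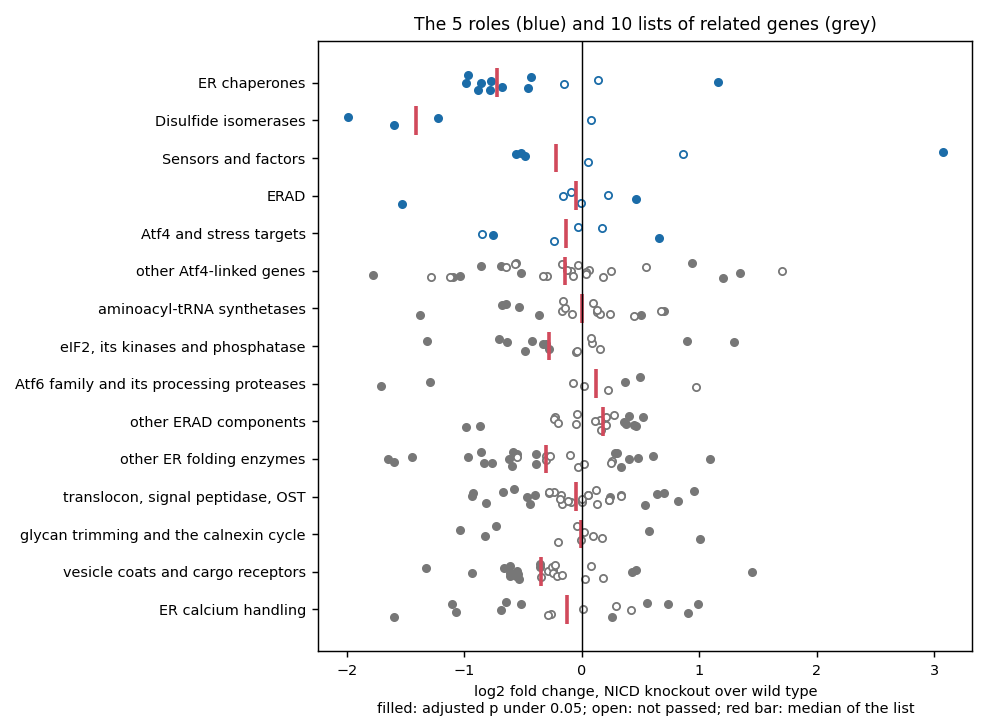
Log2 fold change of every tested gene in the 5 roles (blue) and the 10 lists of related genes (grey), with the median of each list as a red bar and filled points for an adjusted p under 0.05. The isomerases and chaperones have medians of -1.41 and -0.72, and the other lists have medians between -0.35 and 0.18.

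Set against their neighbours, the 34 genes fell into different kinds. Hspa5, Hsp90b1, Calr, Sdf2l1, Manf, Ern1, Xbp1 and Ddit4 had neighbour medians between -0.13 and 0.17 and kept their calls after subtraction. Hyou1, Eif2ak3, Atf6, Dnajb11, Derl1 and Ppp1r15a no longer passed, while Dnajc10, P4hb and Derl2 passed only after it. The part of the neighbours in these changes was not tested beyond this subtraction.

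**Figure D5:**
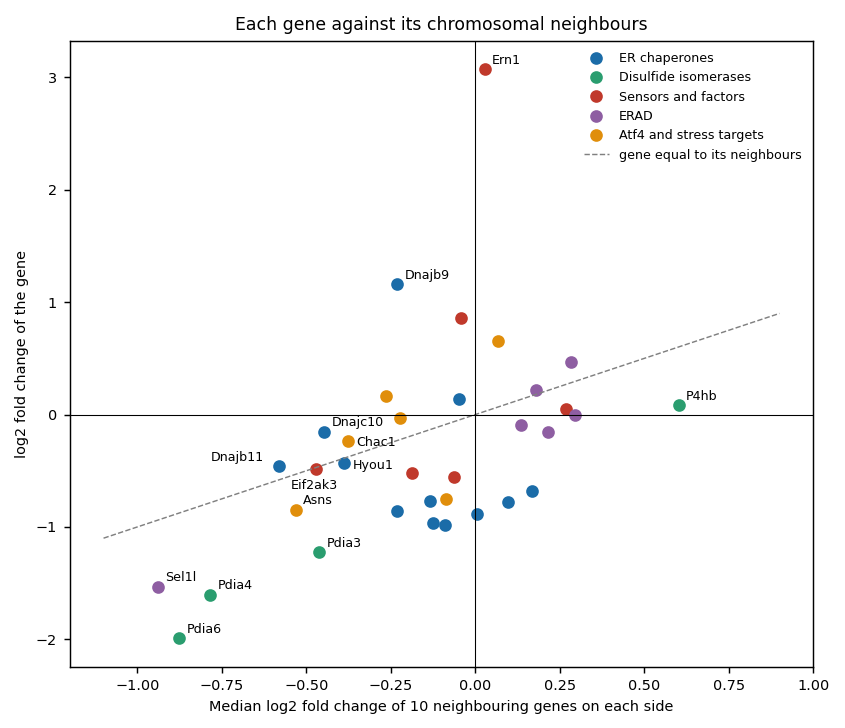
Log2 fold change of each of the 34 genes against the median of its 10 neighbours on either side, coloured by role, with a dashed line where the gene equals its neighbours. Pdia6, Pdia4, Pdia3 and Sel1l lie below the line at neighbour medians of -0.94 to -0.46, and Ern1 stands far above it at 0.03.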

How the data were processed

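RNA of 6 mLPS1 libraries was extracted with TRI Reagent, per the labels' protocols. Salmon, DESeq2 and the build mm39 were used by the authors, per the submitters' processing notes. Versions, order, settings and filters were not given in the sources. The deposited table lists for every gene a mean of size-factor-normalised counts (a signal), the log2 fold change and its standard error, a Wald statistic (a score), a p-value and an adjusted p-value, per the file headers. Recomputing the last 3 columns gave differences of at most 1.56e-13. No values of single libraries were used, so no counts were refitted here and edgeR was not run. A gene passed where the adjusted p from the authors' DESeq2 fit was under 0.05, unless another setting is named. For subtracted neighbours, centring and the test beyond 1.5-fold, Wald p-values were recomputed here from the deposited changes and standard errors. They were then adjusted again over the genes tested. Bonferroni adjustment and minimum means used the deposited p-values, adjusted again.

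The members and lists were chosen with earlier results of these data known. All 34 members are named, and of each of 10 lists of related genes at most 4, those with the smallest deposited p. A few other list genes named beside a count (such as Cd68) were chosen after their values were seen. Where a list held an older and a newer symbol, the form in the table was used, giving 204 genes for 233 symbols. Of the 14472 rows, 99.9% matched the GENCODE M21 annotation by Ensembl identifier, which gave chromosome and gene order only. Neighbours were protein-coding and had means of 100 or more. Coefficients of variation were derived from the standard error and the fitted levels under a negative binomial model with 3 libraries in each group. The call steps and neighbour medians were tested on simulated data. Software was Python 3.11.15, numpy 2.4.6, pandas 2.3.3, scipy 1.17.1 and matplotlib 3.10.9.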

Additional observations from a re-analysis of the deposited data

How the results depend on the processing

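The counts of 17 members lower and 4 higher stayed within 1.5 times (12 to 17 and 3 to 4) under an adjusted p of 0.01, a minimum mean of 10 or 100, centring on expressed genes, subtraction of neighbours and a change of at least 1.5-fold. Bonferroni adjustment gave 7 lower and 2 higher, and a test of a change beyond 1.5-fold 5 and 2. For the lists of related genes, with 69 lower and 39 higher, the same 2 settings gave 30 and 12, and 16 and 4, and a change of at least 1.5-fold gave 42 and 17. Subtracting neighbours turned the sign of Dnajb11 (0.12, adjusted p = 0.492), Dnajc10 (0.29, adjusted p = 0.0423) and P4hb (-0.52), and, among genes that passed neither way, of Atf4 (-0.22), Chac1 (0.14) and Sesn2 (0.20), and Derl2 passed (-0.38, adjusted p = 0.00277). Of the members that passed, Hyou1 was lost on centring (-0.38, adjusted p = 0.0510), which shifts all genes by 0.05 and turned the sign of Edem1 (0.05) and Sesn2 (0.02). The remaining causes were not tested.

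No paired analysis was possible because the table holds no values of single libraries, and for the same reason leaving out a replicate was not run. The other row of a symbol on 2 rows was not run either, since all 259 list genes found stand on 1 row. The depth of each library is unknown, which leaves the standard error as the only measure of precision.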
